A study of Mus musculus with 3 samples.

Results

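The transcription factors Runx1, Runx2, Runx3, Sp7, Sall1, Atf4 and Klf4, known from bone and tooth formation, were followed through single-cell RNA counts of mouse lower molars, and odontoblasts were compared with osteoblasts. The 7 genes were taken by symbol, and each was found once in all 3 count tables, among 28006 listed genes in the tables of Cxcl12-GFP P6 and Col1a1-GFP_Cxcl12-creER P25 and 32286 in that of Cxcl12-creER P6. Every cell type named here is a cluster of cells named from marker genes, so each name carries the ending "-like".

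RUNX proteins bind DNA through a shared Runt domain together with the partner CBFβ. Runx2 is required for osteoblast formation and for teeth to develop past their early stages, Runx1 is best known from blood and epithelia, and Runx3 from neurons, lymphocytes and cartilage. Sp7 (Osterix) is a zinc finger factor that acts downstream of Runx2 and is required for osteoblast maturation, Atf4 drives amino acid uptake and synthesis and promotes osteoblast collagen and osteocalcin production, Klf4 is a zinc finger factor that has been linked to both proliferation arrest and odontoblast differentiation, and Sall1 is a zinc finger factor known from kidney and limb.

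The study sorted fluorescent cells from mandibular molars and profiled them by droplet sequencing of transcript 3′ ends, with 1 library in each of 3 groups. For the group Cxcl12-GFP P6, cells with GFP, here a reporter of the chemokine gene Cxcl12, were taken at postnatal day 6 from the genotype Cxcl12-GFP/+. The group Cxcl12-creER P6 held tdTomato-positive cells of Cxcl12-creER; R26R(tdTomato/+) mice at day 6, in which the reporter marks cells that recombined under Cxcl12-driven, tamoxifen-dependent Cre and their progeny. The group Col1a1-GFP_Cxcl12-creER P25 came from Col1a1-GFP; Cxcl12-creER; R26R(tdTomato/+) mice at day 25, with cells sorted for GFP, tdTomato or both; its GFP reports Col1a1, the collagen gene of bone and dentin. All mice carried a Cxcl12 reporter or driver allele, the labels do not tell how many animals were used or when tamoxifen was given, and every cell passed a fluorescence gate, so the proportions of cell types are those of the gates. With 1 library per group there is no test across animals: the intervals below are exact 95% intervals for counting error only.

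After filters, 7065, 1121 and 5401 cells remained of 7528, 1691 and 6693 deposited barcodes for Cxcl12-GFP P6, Cxcl12-creER P6 and P25, with medians of 8138, 1459 and 14759 unique molecular identifiers (UMIs, each a counted transcript) per cell. At most 5 barcodes were shared by any pair of libraries. Cxcl12-creER P6 stood apart in depth, so its values rest on few UMIs. Levels are CPM, the UMIs of a gene per 1000000 UMIs summed over the cells of a class. They are compared between classes for a given gene, not between genes.

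Odontoblasts and osteoblasts could both be named only at P25. The odontoblast-like class was a single cluster of 306 cells with Coch, Dspp, Ifitm5, Smpd3, Dmp1, Tubb3, Bglap and Wnt10a among its leading genes. Not all of these set it apart from osteoblast-like cells, where Bglap was higher, as given below. The 8 odontoblast markers summed to 2729.5 CPM in odontoblast-like and 1560.3 in osteoblast-like cells. Such a sum does not show that each marker was higher in odontoblast-like cells. Dspp, which encodes the dentin matrix protein that defines odontoblasts, reached 610.5 CPM there against 9.48 in osteoblast-like cells, yet its UMIs were spread unevenly. Of the 306 cells, 36 had any Dspp UMI (11.8%, 8.38 to 15.9), against 4.50% of osteoblast-like and 4.42% of pulp-like cells, and 10 cells held 2988 of the class's 3469 Dspp UMIs. Wnt10a was found in 255 and Tubb3 in 257 of the 306 cells. The class was named by the mean score of its marker list, with a raised Dspp level also required. The name therefore rests in part on a transcript found in 36 of the 306 cells. At a higher clustering resolution 127 of its 306 cells formed a part with 3.59 CPM of Dspp, under the 5.45 of pulp-like and the 9.48 of osteoblast-like cells, so Dspp does not settle whether these are odontoblasts. Without them the excess of osteoblast-like over odontoblast-like cells went from 1.47-fold to 1.93-fold for Runx2 and from 1.06-fold to 2.02-fold for Runx3.

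The osteoblast-like class, which could also hold cementoblasts, joined 5 clusters with 1267 cells. Its defining genes Bglap (osteocalcin) and Ibsp (bone sialoprotein) were 4.91-fold and 2.76-fold higher than in odontoblast-like cells, at 50933 against 10367 and 12264 against 4444 CPM. This held for the class as a whole and for clusters 4 and 6, but not for each cluster. Cluster 9 lay below odontoblast-like cells in both genes, with 6522 CPM of Bglap and 908.9 of Ibsp. Cluster 7 lay below them in Bglap (5862 CPM) and cluster 16 in Ibsp (1689 CPM). Markers of other cell types were summed in both classes. The 9 macrophage markers summed to 21.1 CPM in odontoblast-like and 21.3 in osteoblast-like cells, the 8 neutrophil markers to 44.4 and 61.6, and the 9 endothelial markers to 4.40 and 5.57, with 4 of the 9 at 0 in odontoblast-like cells. The 14 dental epithelium markers summed to 196.9 against 25.7 CPM, with 2 and 3 genes at 0, and the 6 cartilage markers to 114.2 against 1531. The 7 erythroid markers summed to 206.3 against 695.9 CPM, the 6 osteoclast markers to 359.6 against 365.4 and the 9 periodontal ligament markers to 705.4 against 1960; the part of these in the results below was not tested.

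The 3 Runx genes share a sequence at their distal promoters, and it is shown because windows of all 3 hold it while their levels across cell types differ. Only promoter windows of 300 bases were searched, so sequence shared elsewhere in the genes is not covered. It is the longest stretch that windows of all 3 genes share, 18 bases (capitals) with the RUNX motif in it as a pair, read 5′ to 3′ on each gene's own strand from the RefSeq promoter windows of build GRCm38.p6:
Runx1, chr16:92826026-92826053, minus strand: ataaaCAACCACAGAACCACAAGttggg
Runx2, chr17:44814584-44814611, minus strand: acaaaCAACCACAGAACCACAAGtgcgg
Runx3, chr4:135120504-135120531, plus strand: tccctCAACCACAGAACCACAAGgccag
Counted from the RefSeq start of its window, the first capital is base 27 in Runx1, base 22 in Runx2 and base −136, before the start, in Runx3. The gene spans given below begin at other bases. Among 32851 promoter windows of 300 bases in the reference table, 4 (0.0122%) held these letters on either strand: those of the 3 Runx genes, and that of Gm16225, which overlaps the Runx3 window on the other strand. A match of letters says nothing about binding in these cells.

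Runx2 was the RUNX gene with the clearest skeletal pattern. Its gene (ENSMUSG00000039153) spans chr17:44495987-44814797 on the minus strand of GRCm38. At P25 it measured 265.5 CPM (258.7 to 272.6) in osteoblast-like cells, 187.7 (182.1 to 193.3) in follicle or ligament-like cells, 181.3 (170.4 to 192.7) in odontoblast-like cells, 118.8 (99.5 to 140.7) in osteocyte-like cells and 42.5 (37.1 to 48.4) in pulp-like cells. Osteoblast-like cells were thus highest of the 11 classes with at least 50 cells, although 29 bone marrow stromal-like cells had 264.9 CPM (209.1 to 331.1), the next 2 classes could not be separated by counting error, and pulp-like cells lay below all of these. Epithelium-like cells had 68.3 CPM, and the lowest class was macrophage-like with 6.07 CPM. Runx2 was 1.47-fold higher in osteoblast-like than in odontoblast-like cells (1.37 to 1.57), from 5630 and 1030 UMIs, and 4.27-fold higher in odontoblast-like than in pulp-like cells (3.69 to 4.95). Because 3 antisense genes, Runx2os1 to Runx2os3, lie within the Runx2 span and the labels do not tell whether counting used strand, part of these counts could belong to them.

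Shares of cells with a Runx2 UMI also put odontoblast-like below osteoblast-like cells. With each cell thinned to 5000 UMIs, 59.9% of 302 odontoblast-like and 69.2% of 1156 osteoblast-like cells had one, with 4 and 111 shallower cells left out, against 13.9% of pulp-like cells. Neutrophil-like cells, chosen as a background for free RNA, stood at 15.8%, and endothelial-like and macrophage-like cells at 2.50% and 2.21%. The pulp-like share thus lay above 2 of these 3 classes and not above neutrophil-like cells. Neutrophil-like cells had 29.1 CPM of Runx2 against 6.07 in macrophage-like cells, and whether their share is free RNA was not tested. Without thinning the odontoblast-like and osteoblast-like shares were 87.9% and 87.4%, at median depths of 16846 and 14046 UMIs. The lower Runx2 level of odontoblast-like cells therefore shows in the shares only at equal depth.

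Runx1 (ENSMUSG00000022952, chr16:92601466-92826149, minus strand) separated odontoblast-like from osteoblast-like cells most. It measured 31.9 CPM (27.4 to 36.9) in odontoblast-like and 81.3 CPM (77.5 to 85.3) in osteoblast-like cells, from 181 and 1724 UMIs. The level was 2.55-fold higher in osteoblast-like cells (2.19 to 2.99). Pulp-like cells had 123.7 CPM (114.5 to 133.6), 3.88-fold more than odontoblast-like cells (3.29 to 4.61). Of the 11 classes with at least 50 cells, the highest was epithelium-like, with 282.5 CPM (262.1 to 303.9), then macrophage-like with 173.8, and the lowest was endothelial-like with 14.8. The 29 bone marrow stromal-like cells had more than any of these, 719.0 CPM (624.8 to 823.4). Odontoblast-like cells were next to lowest, and their level did not differ beyond counting error from the 35.6 CPM of follicle or ligament-like cells (ratio 0.895, 0.757 to 1.05). At 5000 UMIs, 10.9% of odontoblast-like and 27.8% of osteoblast-like cells had a Runx1 UMI, against 3.75% of endothelial-like cells as background.

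Runx3 (ENSMUSG00000070691, chr4:135120652-135177990, plus strand) was sparse. It measured 27.1 CPM (23.0 to 31.7) in odontoblast-like and 28.7 CPM (26.5 to 31.1) in osteoblast-like cells. These levels did not differ beyond counting error, with an osteoblast-like to odontoblast-like ratio of 1.06 (0.887 to 1.27). This depended on how the odontoblast-like class was cut. The odontoblast-like minus osteoblast-like log2 difference was −0.08 as given here, but −1.20 at clustering resolution 2.0, −1.05 with no gene left out of the variable genes and −0.91 with doublets kept, where the class held 179, 181 and 183 cells. Of the same 11 classes the highest was follicle or ligament-like with 58.0 CPM (55.0 to 61.2), 2.14 times the odontoblast-like level, and osteocyte-like cells had 7.09 CPM from 8 UMIs. At 5000 UMIs, 10.6% of odontoblast-like, 13.8% of osteoblast-like and 23.1% of follicle or ligament-like cells had a UMI, against 0 of 80 endothelial-like cells, which allows a share of up to 3.75%.

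Sp7 (ENSMUSG00000060284, chr15:102356606-102367182, minus strand) did not separate the mineralising classes. It measured 200.6 CPM (189.2 to 212.6) in odontoblast-like, 193.6 (187.7 to 199.6) in osteoblast-like and 181.7 (157.7 to 208.4) in osteocyte-like cells. The 3 intervals overlap, and the odontoblast-like to osteoblast-like ratio was 1.04 (0.970 to 1.11). Follicle or ligament-like cells followed with 121.3 CPM and pulp-like cells with 99.9 CPM (91.5 to 108.7), and the other 6 classes lay between 2.62 and 12.2. Sp7 was 2.01-fold higher in odontoblast-like than in pulp-like cells (1.81 to 2.23). At 5000 UMIs, 58.3% of odontoblast-like, 56.5% of osteoblast-like and 36.2% of pulp-like cells had an Sp7 UMI, against 0.565% of neutrophil-like cells, so all 3 stood above the background; unthinned, the shares were 91.5%, 79.2%, 55.8% and 2.94%.

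Atf4 (ENSMUSG00000042406, chr15:80255184-80257541, plus strand) was the most evenly spread of the 7 genes. Across the 11 classes it ran from 98.6 CPM in epithelium-like to 250.5 CPM in pulp-like cells, with a median of 175.7. Odontoblast-like cells had 210.1 CPM (198.4 to 222.4) and osteoblast-like cells 198.4 (192.4 to 204.5), a ratio of 1.06 (0.993 to 1.13) that includes 1. Atf4 protein is controlled mainly through translation, which these counts do not measure.

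Klf4 (ENSMUSG00000003032, chr4:55527143-55532466, minus strand) was slightly higher in odontoblast-like cells. It measured 727.4 CPM (705.4 to 749.9) there and 609.2 (598.7 to 619.8) in osteoblast-like cells, a ratio of 1.19 (1.15 to 1.24). Osteocyte-like cells had more, with 1072 CPM, as did pulp-like cells with 916.3 and connective tissue fibroblast-like cells with 1419, the highest of the 11 classes. Follicle or ligament-like cells had 162.9 CPM, which odontoblast-like cells exceeded 4.47-fold (4.27 to 4.67), and epithelium-like cells were lowest of the 11 with 84.4. A class of 29 erythroid-like cells had 7 UMIs (9.999 CPM).

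Sall1 (ENSMUSG00000031665, chr8:89027235-89044162, minus strand) was close to undetected. It had 46 UMIs in all kept P25 cells, of which 23 lay in 22 pulp-like cells (4.33 CPM, 2.74 to 6.49) and 12 in unnamed clusters. Odontoblast-like and osteoblast-like cells had 3 UMIs each, which is at the detection floor of 3 counts, so no ratio is given between them. From 23 and 3 UMIs, the pulp-like level was 30.6 times the osteoblast-like one, with a wide counting interval (9.24 to 159). At 5000 UMIs, 14 of 495 pulp-like cells had a UMI (2.83%), against 0 of 177 neutrophil-like cells, which allows up to 1.69%.

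The members were then set beside all genes. Of 5736 genes with at least 20 CPM and 50 UMIs in the higher class, 5.74% were at least 2-fold higher in odontoblast-like cells and 5.18% at least 2-fold higher in osteoblast-like cells, on CPM plus 1. Of the 7 genes, 6 reached these limits, all but Sall1. Among them, 0 were at least 2-fold higher in odontoblast-like cells and 1, Runx1, in osteoblast-like cells, where 10.9% of all genes passed in either direction. A count of 1 among 6 near that background is not a result about these factors, and it varied with the clustering: on CPM, Runx3 was also over 2-fold lower in odontoblast-like cells at resolution 2.0 and with no gene left out, as given above. The median of the 6 was −0.01 on the log2 scale, against 0.16 for all genes. Relative to that median, the odontoblast-like minus osteoblast-like log2 differences were −1.51 for Runx1, −0.71 for Runx2, −0.25 for Runx3, −0.11 for Sp7, −0.08 for Atf4 and 0.09 for Klf4. This takes the same 0.16 from every gene, so the small positive differences of Sp7 and Atf4, which counting error did not separate from 0, turn negative by construction. In 9 cells gated by Dspp alone, the log2 difference was −0.49 for Runx1, no longer 2-fold, −2.09 for Runx2 and −0.71 for Sp7. For Klf4 it was −1.15, a direction reversed from that of the class.

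The osteoblast-like clusters ranged widely in the RUNX genes. Cluster 4 (353 cells, led by Spp1 and Bglap), cluster 6 (293 cells, led by Bglap), cluster 7 (284 cells, led by Ibsp and Bmp3) and cluster 9 (237 cells, led by Mmp13) are described first, and the shallow cluster 16 (100 cells, a median of 1675 UMIs) is given at the end. As given above, cluster 9 had less Ibsp and Bglap than odontoblast-like cells, and cluster 7 less Bglap. Runx2 measured 311.8, 159.1, 428.4 and 302.2 CPM in clusters 4, 6, 7 and 9. Cluster 7 exceeded odontoblast-like cells 2.36-fold (2.18 to 2.56), while cluster 6, the cluster with the most Bglap (94897 CPM), lay below them in CPM, at a ratio of 0.878 (0.808 to 0.953). Cluster 6 also had 40597 CPM of Bglap2 and 72991 of Col1a1, against 4187 and 51293 in odontoblast-like cells. Such abundant transcripts lower the CPM of all other genes, and their part in this small difference was not tested. By CPM, Runx2 was therefore not higher in every osteoblast-like cluster.

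Runx1 measured 160.3, 29.8, 24.9 and 130.4 CPM in clusters 4, 6, 7 and 9. Clusters 4 and 9 exceeded odontoblast-like cells 5.03-fold (4.29 to 5.93) and 4.09-fold (3.44 to 4.89), while clusters 6 and 7 could not be separated from them. Both Runx1-high clusters have Mmp13, a collagenase gene, among their leading genes. Runx3 followed the same split, with 45.5, 17.5, 9.11 and 48.0 CPM. It was 2.98-fold higher in odontoblast-like cells than in cluster 7 (2.0 to 4.56) and lower in them than in clusters 4 and 9, at ratios of 0.596 and 0.565, so the equal class levels of Runx3 average unequal clusters.

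Sp7 measured 183.9, 230.1, 151.2 and 168.6 CPM in these 4 clusters. Of the 4 it was highest in the Bglap-led cluster 6, where Runx2 was lowest, and the odontoblast-like level was 0.872 times that of cluster 6 (0.810 to 0.939) and 1.33 times that of cluster 7 (1.19 to 1.48). Klf4 measured 693.4, 528.3, 451.2 and 806.2 CPM, so cluster 9 exceeded odontoblast-like cells and clusters 6 and 7 lay below them. Atf4 stayed between 177.0 and 213.9 CPM in these 4 clusters. Cluster 16 had 95.2 CPM of both Runx2 and Sp7, from 23 UMIs each, which odontoblast-like cells exceeded 1.90-fold (1.26 to 3.02) and 2.11-fold (1.40 to 3.34). Its Atf4 stood at 293.9 CPM and its Klf4 at 745.0, with odontoblast-like ratios of 0.715 (0.563 to 0.922) and 0.976 (0.841 to 1.14), and it had 5 Runx1 UMIs and 1 Runx3 UMI. Against osteocyte-like cells, odontoblast-like cells had 1.53-fold more Runx2 (1.27 to 1.84) and 3.82-fold more Runx3 (1.89 to 9.01), but 0.679 times the Klf4 (0.636 to 0.724) and an Sp7 level that could not be separated (1.10, 0.951 to 1.29).

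**Figure D1:**
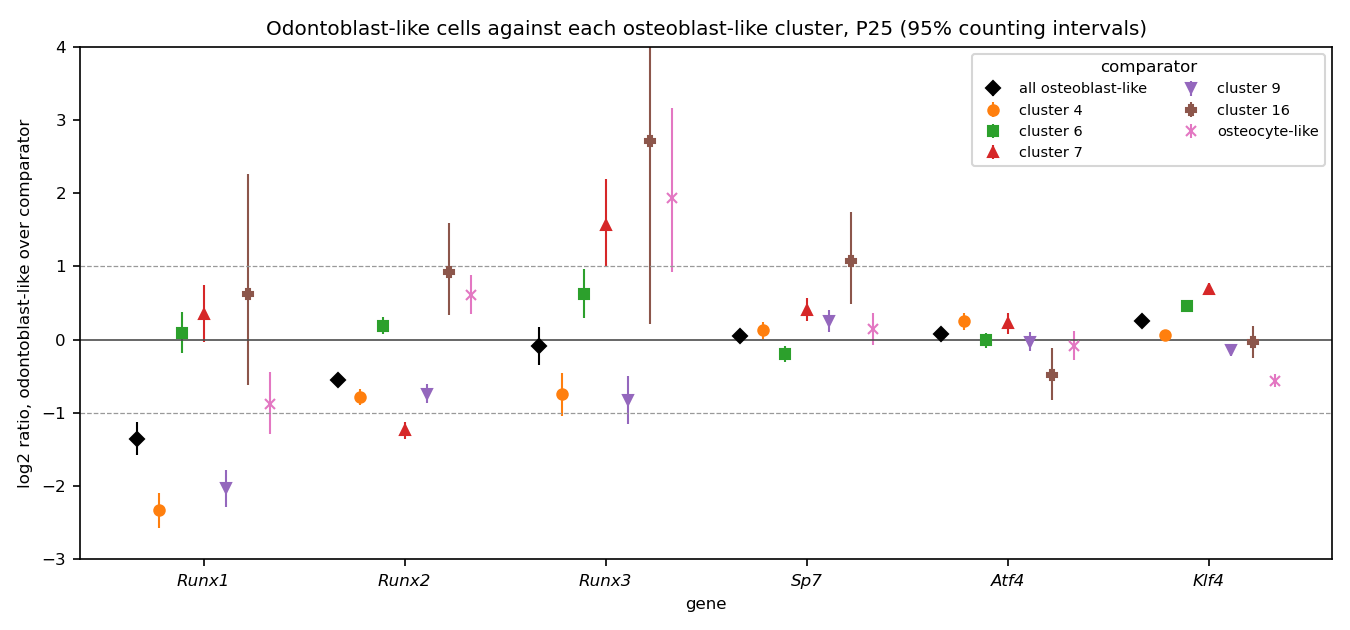
Odontoblast-like level over that of all osteoblast-like cells, of each osteoblast-like cluster and of osteocyte-like cells at P25, as log2 ratios (vertical axis) for 6 genes (horizontal axis); error bars are 95% counting intervals, the dashed lines mark 2-fold, and the upper interval of Runx3 against cluster 16 runs past the axis. Runx1 lies below the lower line against clusters 4 and 9 and near 0 against clusters 6 and 7, and Runx2 is furthest below 0 against cluster 7 (428.4 CPM).

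The odontoblast-like cluster itself split in 2 at a higher clustering resolution, a split taken up after its values had been seen. One part, here called Dmp1-high, had 179 cells (median 19016 UMIs) and the other, Dmp1-low, 127 cells (median 14641 UMIs). Of the leading genes, Coch stood at 817.1 and 842.9 and Tubb3 at 369.7 and 386.9 CPM in the Dmp1-high and Dmp1-low parts, while Smpd3 stood at 1032 and 539.5. The Dmp1-low part lacked most mineral matrix transcripts: Dspp was 928.1 against 3.59 CPM, Bglap 15555 against 450.4, Dmp1 972.3 against 46.6, and Phex, a regulator of phosphate, 168.6 against 3.07. Taken alone, the Dmp1-low part did not meet the marker limits for a name.

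Runx2 and Runx3 were lower in the Dmp1-high part. Runx2 measured 137.5 CPM in Dmp1-high and 264.9 in Dmp1-low cells, 1.93-fold more in the latter (1.70 to 2.18). The Dmp1-low level equalled that of osteoblast-like cells (ratio 0.998, 0.910 to 1.09), so the lower Runx2 of the odontoblast-like class lay in its Dmp1-high cells, which osteoblast-like cells exceeded 1.93-fold (1.76 to 2.12). Runx3 measured 14.2 and 51.8 CPM, 3.64-fold more in Dmp1-low cells (2.59 to 5.18), from 53 and 101 UMIs. Osteoblast-like cells had 2.02 times the Runx3 of Dmp1-high cells (1.53 to 2.73), a difference not seen over the whole class.

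The other members differed less or the other way. Sp7 was 1.25-fold higher in Dmp1-high cells (215.5 against 172.2 CPM, 1.10 to 1.43) and Atf4 1.20-fold higher (222.8 against 186.0, 1.06 to 1.36). Klf4 was 1.15-fold higher in Dmp1-low cells (1.08 to 1.22), and Runx1 could not be separated (30.02 against 35.4 CPM). Between the parts, 5.22% of the genes tested were at least 2-fold higher in Dmp1-high and 9.47% in Dmp1-low cells; of the members only Runx3 passed 2-fold, in Dmp1-low cells. The parts were named by their Dmp1 level, so its difference describes the split. Dmp1, Bglap and Phex were left out of the variable genes used for clustering, and Dspp was not. As the split was taken up after its values had been seen, the differences of these genes are a description only.

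**Figure D2:**
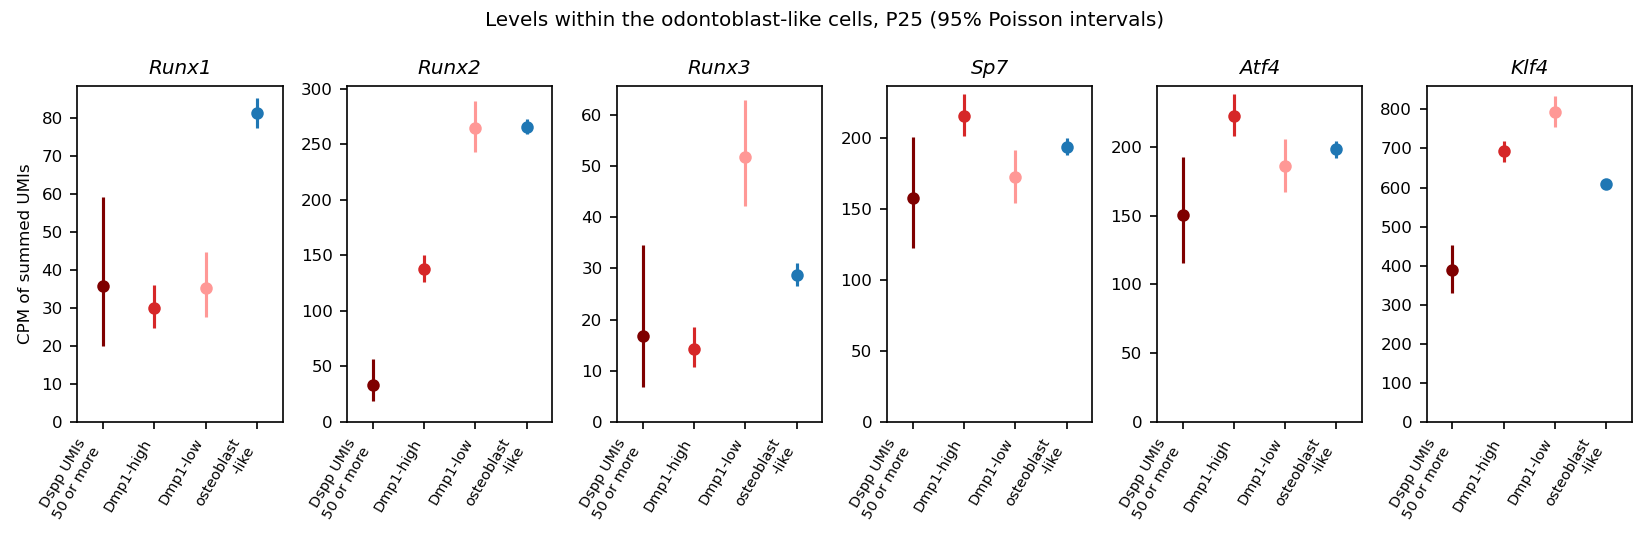
Level (CPM, vertical axis of each panel, from 0) of 6 genes in the 16 odontoblast-like cells with at least 50 Dspp UMIs, in the Dmp1-high (179 cells) and Dmp1-low (127 cells) parts of the odontoblast-like cluster, and in osteoblast-like cells of the P25 library; error bars are exact 95% Poisson intervals, and the 16 cells are also part of the Dmp1-high bar. Runx2 steps down from osteoblast-like and Dmp1-low cells (265.5 and 264.9) to Dmp1-high (137.5) and to the Dspp-rich cells (33.5), whereas Sp7 stays between 157.8 and 215.5.

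The same order was seen with Dspp as the guide, again a grouping chosen after the values had been seen. Runx2 measured 33.5 CPM (18.3 to 56.2; 14 UMIs, in 9 of 16 cells) in cells with at least 50 Dspp UMIs, 115.9 (87.1 to 151.2) in 20 cells with 1 to 49, and 200.5 in 270 cells with none. These intervals do not overlap, and Runx2 was 2.61-fold higher in odontoblast-like cells without Dspp than in the 36 with it (2.04 to 3.39), although the latter were deeper (a median of 22956 against 16324 UMIs). Within the Dmp1-high part alone the same ratio was 2.09 (1.62 to 2.74). Osteoblast-like cells exceeded the 36 Dspp-positive cells 3.45-fold (2.72 to 4.45).

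Sp7 did not show the stepwise order of Runx2. It measured 157.8 CPM (122.1 to 200.8) in the 16 Dspp-rich cells, all 16 of which had at least 1 Sp7 UMI, then 225.3 and 202.0 in the other groups. Dspp-positive and osteoblast-like cells could not be separated in Sp7 (ratio 0.999, 0.852 to 1.16). That ratio pools the Dspp-rich cells with those of 1 to 49 Dspp UMIs. In the 9 cells gated by Dspp alone, the log2 difference of Sp7 from gated osteoblast-like cells was −0.71. Klf4 was lower in Dspp-rich cells, at 387.4 CPM (330.1 to 451.9) against 637.3 and 765.8, so it was 1.48-fold higher without Dspp (1.34 to 1.63). In the 36 Dspp-positive cells Klf4 lay below the osteoblast-like level, the reverse of the whole class. The Dspp-rich cells had 60505 CPM of Bglap, above the 50933 of osteoblast-like cells, and 605.1 CPM of Ibsp, far below their 12264.

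Runx2 and Sp7 were next compared cell by cell, since Sp7 lies downstream of Runx2 in osteoblasts. With each P25 cell thinned to 5000 UMIs, both genes were found in 33.8% of odontoblast-like, 39.5% of osteoblast-like, 36.5% of osteocyte-like, 25.2% of follicle or ligament-like and 4.65% of pulp-like cells. Cells with Sp7 but no Runx2 UMI made up 24.5% of odontoblast-like, 16.96% of osteoblast-like and 31.5% of pulp-like cells. Cells with Runx2 but no Sp7 UMI made up 26.2%, 29.7% and 9.29%. Pulp-like cells thus held Sp7 largely without detected Runx2, at a depth where a missing UMI does not show absence.

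In Cxcl12-GFP P6 the 2 genes were also unequal by class. A class of 2326 cells high in the cartilage collagen gene Col9a1, which took no cell type name, had Sp7 without a Runx2 UMI in 54.5% of cells and both in 5.02%. Follicle or ligament-like cells there had Runx2 without Sp7 in 38.9%, Sp7 without Runx2 in 10.9% and both in 12.0%. Osteoblast-like cells had both in 25.6%. Pulp-like cells there had both in 12.2%, Runx2 without Sp7 in 14.6% and Sp7 without Runx2 in 35.6%, each above the P25 share of the same class.

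**Figure D3:**
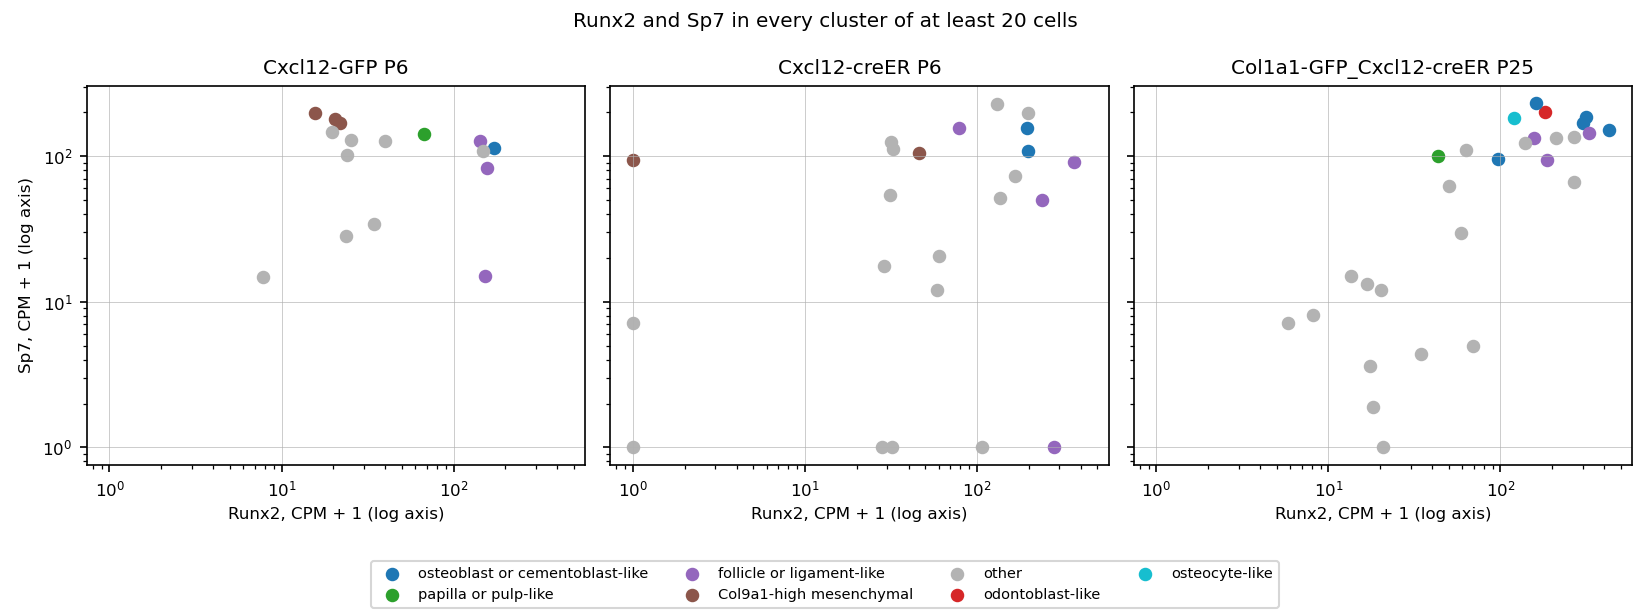
Runx2 (horizontal axis) against Sp7 (vertical axis) in every cluster of at least 20 cells, as CPM plus 1 on log axes, in 1 panel per library; each point is a cluster, coloured by its class. Mineralising clusters of P25 lie at high values of both genes, and the Col9a1-high clusters of Cxcl12-GFP P6 lie at high Sp7 (183.5 CPM as a class) and low Runx2 (17.9).

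The partners of RUNX proteins were measured next, from a list of 23 co-regulators. Of 19 tested, 1 was at least 2-fold higher in odontoblast-like cells and 0 in osteoblast-like cells, beside 5.74% and 5.18% of all genes, with a median log2 difference of 0.17 against 0.16. The 1 gene was Twist2, a basic helix-loop-helix protein known to restrain Runx2, with 54.4 against 12.3 CPM (4.42-fold, 3.73 to 5.23); it is also a marker of the connective tissue fibroblast list. Tle1, a co-repressor, had 25.3 against 13.1 CPM (1.93-fold), and Hdac4, a deacetylase known to bind Runx2, 37.5 against 21.8 (1.72-fold). On CPM Hey1, a Notch-regulated repressor, was 2.07-fold higher in osteoblast-like cells (24.8 against 12.0), just under 2-fold on CPM plus 1.

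Known Runx2 and Sp7 targets of bone were mostly higher in osteoblast-like cells. Of 22 listed, 20 were tested, 12 were at least 2-fold higher in osteoblast-like cells and 0 in odontoblast-like cells, with a median log2 difference of −1.44, beside 5.18% and 5.74% of all genes and a median of 0.16. However, 11 of the 22 had also served as markers to name cell classes. Of the 10 tested targets that had not, 4 (Col5a3, Enpp1, Tnfsf11 and Vdr) were at least 2-fold higher in osteoblast-like cells and 0 in odontoblast-like cells, and the median was −0.87; Enpp1 is named here after its values were seen. Vdr, the vitamin D receptor, had 160.2 CPM in osteoblast-like and 5.46 in odontoblast-like cells (29.4-fold, 20.6 to 43.3), and Tnfsf11, the osteoclast-inducing cytokine RANKL, 37.7 and 0.880 CPM from 799 and 5 UMIs (42.8-fold, 18.3 to 132.3). Col5a3 had 25.1 CPM in osteoblast-like cells and 3 UMIs in odontoblast-like cells, a ratio of 47.4 with a wide counting interval (16.1 to 230.8).

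Among the targets that were markers, Mmp13 was 78.9-fold higher in osteoblast-like cells (66.4 to 94.4) and Pth1r, the parathyroid hormone receptor, 9.45-fold (8.46 to 10.6). Mepe, a matrix phosphoglycoprotein, had 1265 UMIs in osteoblast-like and 0 in odontoblast-like cells, at least 113-fold higher when 3 counts are taken for the 0. These 3 describe how the classes were cut. Bglap, Bglap2 and Bglap3 are near-identical copies whose reads may be split among them.

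Promoters of 3 of these targets are printed because they carry the letters that RUNX proteins read while their transcripts differ widely between the 2 classes. Each line holds the 250 bases before the RefSeq start in GRCm38.p6, 5′ to 3′ on the gene's strand, with capitals for the RUNX motif TGTGGT on either strand and, in Bglap, also for the ATF4-type motif TGATGNAA, which do not overlap:
Bglap, chr3:88384467-88384716, minus strand: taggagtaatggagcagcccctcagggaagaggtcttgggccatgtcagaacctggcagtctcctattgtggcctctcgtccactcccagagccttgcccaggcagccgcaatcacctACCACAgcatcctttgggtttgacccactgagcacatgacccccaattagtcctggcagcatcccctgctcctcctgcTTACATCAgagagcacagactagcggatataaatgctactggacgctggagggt
Mmp13, chr9:7272264-7272513, plus strand: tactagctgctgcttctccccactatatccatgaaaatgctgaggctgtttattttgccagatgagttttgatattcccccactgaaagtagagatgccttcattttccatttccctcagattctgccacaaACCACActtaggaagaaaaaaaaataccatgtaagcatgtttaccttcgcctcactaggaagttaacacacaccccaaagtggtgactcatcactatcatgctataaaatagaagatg
Mepe, chr5:104325079-104325328, plus strand: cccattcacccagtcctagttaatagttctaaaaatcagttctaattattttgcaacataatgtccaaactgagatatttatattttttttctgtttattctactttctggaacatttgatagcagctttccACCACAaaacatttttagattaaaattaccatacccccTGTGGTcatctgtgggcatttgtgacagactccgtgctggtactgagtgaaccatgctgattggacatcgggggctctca
The RUNX motif starts at −132 in Bglap, at −118 in Mmp13 and at −118 and −80 in Mepe, and the ATF4-type motif at −54 in Bglap. The RUNX letters occur in 14.0% of all 32851 windows of this length and the ATF4-type letters in 3.45%. Of the 22 targets, 19 had a window, 6 of them with the RUNX motif (Bglap, Dmp1, Enpp1, Mepe, Mmp13 and Spp1) and 1 with the ATF4-type motif. Of the 7 factors, 6 had a window, 2 with the RUNX motif (Runx2 and Runx3), 3 with the SP and KLF-type letters GGGCGG (Klf4, Runx3 and Sall1), which 32.7% of all windows hold, and 0 with the ATF4-type motif. A gene was counted if any of its windows matched, with 24 windows for the 19 targets and 10 for the 6 factors. These counts of genes are therefore not on the same footing as the shares of windows.

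Targets of Atf4 were counted next. Of 27 listed genes, 17 were tested, 1 was at least 2-fold higher in odontoblast-like and 1 in osteoblast-like cells, beside 5.74% and 5.18% of all genes, with a median log2 difference of 0.32 against 0.16. Asns, asparagine synthetase, had 46.6 against 18.6 CPM (2.51-fold higher in odontoblast-like cells, 2.14 to 2.94), and the metabolic enzyme genes Mthfd2 and Psph were 1.95-fold and 1.77-fold higher there. Cebpb, a leucine zipper factor that pairs with Atf4, went the other way, with 441.0 CPM in osteoblast-like and 52.6 in odontoblast-like cells (8.38-fold, 7.47 to 9.43).

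Relatives of Klf4 and Sp7 were counted in the same way. Of 12 other KLF genes 7 were tested, and 0 were at least 2-fold apart, where 10.9% of all genes were. Klf2, Klf6 and Klf9 were 1.32-fold, 1.47-fold and 1.46-fold higher in osteoblast-like cells and Klf3 1.66-fold higher in odontoblast-like cells. Of 10 SALL and SP genes 3 were tested, and 1, Sp6 (Epiprofin, a tooth development factor), was at least 2-fold higher in odontoblast-like cells, with 70.2 against 12.0 CPM (5.86-fold, 4.996 to 6.89), where 5.74% of all genes were. Sp1 and Sp3 had ratios of 1.06 (0.908 to 1.24) and 1.17 (1.03 to 1.31). Sp6 is also known from dental epithelium, whose markers summed higher in odontoblast-like cells as given above, and their part in this difference was not tested.

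Klf4 is itself a gene that cell dissociation can induce, so 20 immediate early and stress genes were counted. Of 18 tested, 6 were at least 2-fold higher in osteoblast-like and 0 in odontoblast-like cells, beside 5.18% and 5.74% of all genes, with a median log2 difference of −0.44 against 0.16. Atf3 had 462.9 against 129.5 CPM (3.57-fold, 3.32 to 3.86), Hspa1a and Hspa1b were 4.14-fold and 4.44-fold higher in osteoblast-like cells, and Egr2 3.20-fold. Klf4 differed in direction from these named genes, being 1.19-fold higher in odontoblast-like cells, but not from every gene of the list. The highest of the 18 had a log2 difference of 0.37, above the 0.26 of Klf4. The part of these stress genes in the Klf4 level was not tested.

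Of 25 other regulators of bone and teeth, 21 were tested, 5 were at least 2-fold higher in odontoblast-like cells and 1 in osteoblast-like cells, beside 5.74% and 5.18% of all genes, with a median log2 difference of 0.43 against 0.16. Msx2, a homeobox factor of tooth mesenchyme, had 44.4 against 5.71 CPM (7.77-fold, 6.23 to 9.73). The Wnt pathway factors Tcf7 and Lef1 were 3.44-fold (3.15 to 3.75) and 2.86-fold (2.42 to 3.37) higher in odontoblast-like cells. The other 2, the homeobox gene Barx1 and the secretory factor gene Xbp1, are named after their values were seen. Nfia was 5.76-fold higher in osteoblast-like cells (4.52 to 7.46).

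Genes whose log2 levels over the 11 classes were most alike those of each member are given as a description, since all points come from 1 library and 9719 genes were compared. For Runx2 they were Fkbp11, Ssr2 and Cdk5rap3 (Pearson r of 0.919, 0.913 and 0.905), and for Sp7 Wif1 and Galnt5 (0.971 and 0.934). For Runx1 they were Aldh16a1, Sergef and Cstb (0.896, 0.872 and 0.864), and for Runx3 Idh2, Timm10b and Shfm1 (0.853, 0.848 and 0.831). Uggt2, St7l and Dirc2 came nearest to Atf4 (0.960, 0.951 and 0.947). Ccnl1, Pdk2 and the immediate early gene Fosb came nearest to Klf4 (0.906, 0.8996 and 0.899).

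Neither day 6 library held an odontoblast-like cluster, so odontoblasts and osteoblasts could not be compared there. Pulp-like cells are set against osteoblast-like cells in Cxcl12-GFP P6 instead, as a different contrast. At P25, pulp-like and odontoblast-like cells had log2 ratios over osteoblast-like cells of 0.61 and −1.35 for Runx1. These ratios were −0.96 and 0.05 for Sp7, and −2.64 and −0.55 for Runx2. In Cxcl12-GFP P6, the name of the osteoblast-like class, 1 cluster, is only weakly borne out by its defining markers. Ibsp had 88.4 CPM, in 51 of 280 cells. The follicle or ligament-like class had 66.3 CPM of it and osteoblast-like cells at P25 had 12264. Bglap had 197.1 CPM against 8.35 and 50933 in the same 2 classes. Beside Bglap and Spp1, its leading genes include Tnmd, Aspn and Mfap5, known from tendon, ligament and fibrous tissue. Runx2 measured 170.1 CPM (155.2 to 186.0) in 280 osteoblast-like cells, 151.4 in 1699 follicle or ligament-like cells, 66.6 in 758 pulp-like cells and 17.9 in the 2326 Col9a1-high cells. Osteoblast-like cells were highest, 2.55-fold over pulp-like (2.22 to 2.94) and 9.53-fold over Col9a1-high cells (8.28 to 10.98). Runx1 was also highest in osteoblast-like cells, with 45.5 CPM against 14.6 in pulp-like (3.11-fold, 2.34 to 4.17) and 12.9 in Col9a1-high cells.

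Sp7 had another order. It measured 183.5 CPM in Col9a1-high, 140.1 in pulp-like, 112.2 (100.2 to 125.3) in osteoblast-like and 58.8 in follicle or ligament-like cells. Osteoblast-like cells were therefore not the Sp7-richest class at day 6: Col9a1-high cells exceeded them 1.64-fold (1.46 to 1.84) and pulp-like cells 1.25-fold (1.09 to 1.43). Runx3 was higher in pulp-like than osteoblast-like cells as well, with 35.0 against 23.8 CPM (1.47-fold, 1.11 to 1.98). Klf4 differed by 1.09-fold and Atf4 not beyond counting error. Of all genes tested in this comparison, 5.92% were at least 2-fold higher in pulp-like and 8.64% in osteoblast-like cells; at that limit Runx1 and Runx2 were the members apart, both higher in osteoblast-like cells.

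The 3 follicle or ligament-like clusters of this library had the same Runx2 and unequal Sp7, a comparison chosen after the values had been seen. Runx2 measured 150.8, 155.6 and 142.3 CPM in clusters 2, 7 and 8 (754, 566 and 379 cells). Sp7 measured 14.1 (11.5 to 17.2), 82.0 and 127.0 CPM, 5.80-fold more in cluster 7 (4.68 to 7.24) and 8.98-fold more in cluster 8 (7.17 to 11.3) than in cluster 2. The level of cluster 2 is near the 13.7 CPM of endothelial-like cells.

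The shallow Cxcl12-creER P6 library gave the same order of Runx2 between 2 of its classes. Osteoblast-like cells (108 cells) had 93 Runx2 UMIs (217.8 CPM, 175.8 to 266.9) and Col9a1-high cells 23 (43.3 CPM), a ratio of 5.03 (3.16 to 8.32). Follicle or ligament-like cells (224 cells) had more, with 312.2 CPM (282.8 to 343.7), 1.43-fold above osteoblast-like cells (1.14 to 1.81). Sp7 could not be separated between osteoblast-like and Col9a1-high cells, with 117.1 and 103.6 CPM from 50 and 55 UMIs. Runx1 was highest in epithelium-like cells, with 142.4 CPM from 183 UMIs against 49.2 CPM from 21 in osteoblast-like cells.

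The classes shared by libraries were set side by side last; age, reporter gate and depth differ together between libraries, and their parts cannot be told apart. The osteoblast-like classes were also unlike in their defining markers, with Ibsp at 88.4 CPM in Cxcl12-GFP P6, 1626 in Cxcl12-creER P6 and 12264 at P25, and Bglap at 197.1, 550.5 and 50933; the part of this in the ratios was not tested. In osteoblast-like cells, P25 exceeded Cxcl12-GFP P6 in Runx1 (1.79-fold, 1.49 to 2.16), Runx2 (1.56-fold, 1.42 to 1.72), Sp7 (1.73-fold, 1.54 to 1.94), Atf4 (1.33-fold, 1.20 to 1.47) and Klf4 (2.09-fold, 1.95 to 2.25), and Runx3 could not be separated (1.21, 0.937 to 1.58). Against Cxcl12-creER P6, Runx1, Sp7 and Klf4 were again higher at P25 (1.65-fold, 1.65-fold and 3.66-fold), while the intervals of Runx2 (1.22, 0.993 to 1.51), Runx3 and Atf4 included 1.

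The pulp-like class was named from markers of papilla or pulp, and its leading genes were unlike between libraries. They included Tac1, Pcp4 and Smoc2 in Cxcl12-GFP P6, and Apod, Trf and Cldn10 at P25. Cluster 4 of Cxcl12-GFP P6, with Cldn10 and Trf among its leading genes, stayed unnamed. The part of these unlike leading genes in the ratios was not tested. In pulp-like cells, Runx1 was 8.48-fold higher at P25 than in Cxcl12-GFP P6 (6.71 to 10.8) and Klf4 2.88-fold (2.73 to 3.05). Runx2 was 0.638 times (0.538 to 0.756) and Sp7 0.713 times (0.637 to 0.797) the P6 level. The Runx2 difference depended on naming: with clusters named by their best marker list alone, its log2 ratio went from −0.65 to −0.11. Sall1 had 23 UMIs against 0. The pulp-like to osteoblast-like contrast thus differed between the libraries. At P25, pulp-like cells had 1.52-fold more Runx1 than osteoblast-like cells (1.39 to 1.67) and osteoblast-like cells 1.94-fold more Sp7 (1.77 to 2.13), both opposite to Cxcl12-GFP P6, whereas Runx2 was higher in osteoblast-like cells in both, 6.25-fold at P25 (5.47 to 7.17). At P25, 19.5% of all genes tested were at least 2-fold higher in pulp-like and 6.93% in osteoblast-like cells, and of the members only Runx2 passed, in osteoblast-like cells. In follicle or ligament-like cells, Sp7 and Runx3 were 2.06-fold (1.92 to 2.22) and 2.16-fold (1.93 to 2.41) higher at P25 than in Cxcl12-GFP P6, and Klf4 was 0.657 times its P6 level.

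**Figure D4:**
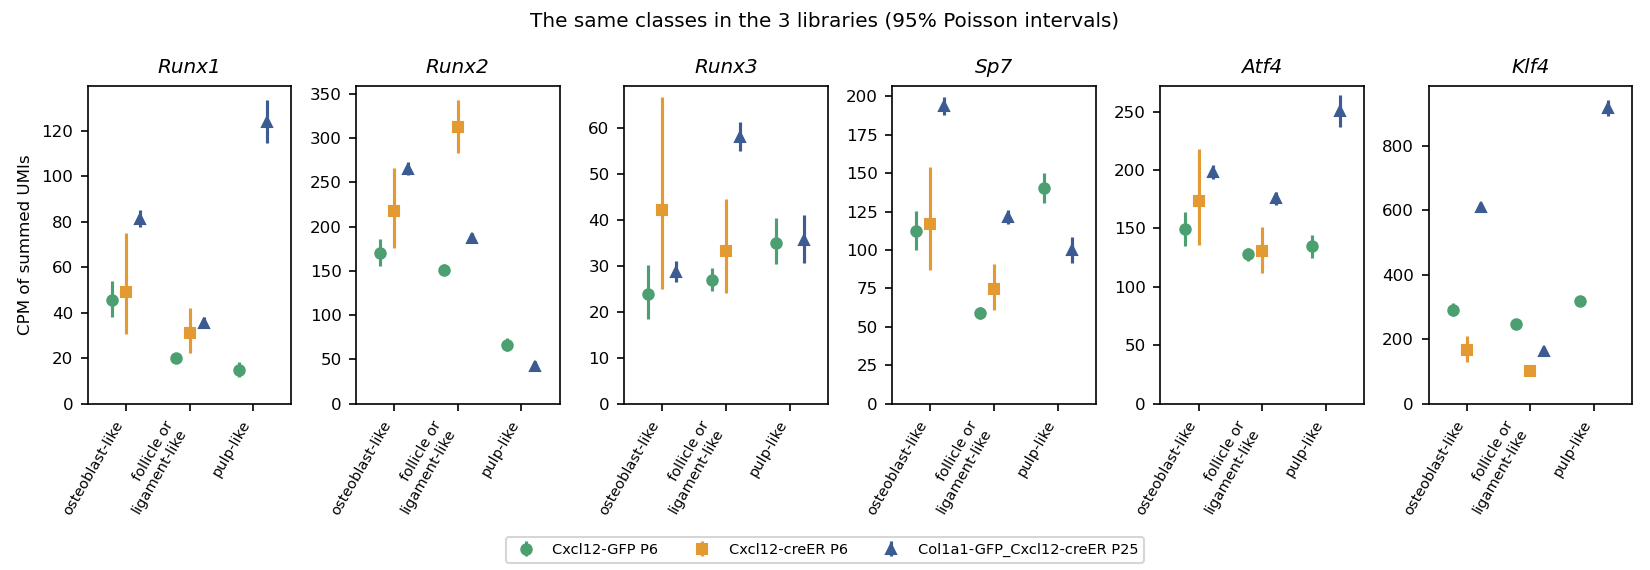
Level (CPM, vertical axis of each panel, from 0) of 6 genes in osteoblast-like, follicle or ligament-like and pulp-like cells (horizontal axis) of the 3 libraries, with 1 library per bar and exact 95% Poisson intervals; no pulp-like class was found in Cxcl12-creER P6. Runx2 in pulp-like cells is 66.6 CPM in Cxcl12-GFP P6 and 42.5 at P25, while Runx1 in the same class is 14.6 and 123.7.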

How the data were processed

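The authors deposited filtered count matrices of UMIs per gene and cell, made with Cell Ranger on mm10 per the submitters' processing notes, which also name Seurat; per the file headers, P25 was made with version 3.1.0 and Cxcl12-creER P6 with 6.0.0. The 10x 3′ v3 chemistry is per the labels' protocols. Whether strand or intronic reads were used is not given in the sources used here. Members and gene lists were chosen with earlier results of these data known.

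Cells under 500 genes or over 15% mitochondrial UMIs were left out, and the highest doublet scores (0.8% per 1000 cells) removed. Each library was clustered alone (2000 variable genes without the members and listed genes, 30 principal components, 15 neighbours, Leiden resolution 1.0) with Python 3.11.15, numpy 2.4.6, scipy 1.17.1, scikit-learn 1.9.0, igraph 0.11.9 and leidenalg 0.10.2, and figures were drawn with matplotlib 3.10.9. Clusters were named from 20 marker lists by a mean score of at least 0.9, a lead of 0.25 over the next list and at least 3 markers. These limits, the need for Dspp or Ibsp, and the separate class for Col9a1-high cells were set after the clusters and some member values had been seen; 1 Bglap-rich cluster of Cxcl12-creER P6 without Ibsp stayed unnamed for this reason.

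Counts were summed per class. Ratios carry exact conditional binomial intervals, levels exact Poisson and shares exact Clopper-Pearson intervals, all at 95%. A gene at 0 is set at 3 counts for a bound. Calls at 2-fold use CPM plus 1, with 20 CPM and 50 UMIs as the minimum in the higher class, and were tested on simulated data. Shares use cells thinned to 5000 UMIs. Between libraries, CPM used the 27040 shared gene identifiers where Cxcl12-creER P6 was 1 of the pair. For P25 against Cxcl12-GFP P6 it used all 28006 listed genes. Genes named are the 7 members, up to 4 listed genes of largest log2 ratio per list (6 of the Runx2 and Sp7 targets) and the 3 most alike genes per member, except where said; 1 of these genes is not reported here. Alternatives tried are clustering resolution, variable genes, filters, naming, scaling, thinning and limits.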

Additional observations from a re-analysis of the deposited data

Results flagged for a closer look

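The pulp-like to osteoblast-like contrast of 2 members had opposite directions in the 2 libraries that held both classes. For Runx1 the log2 ratio of pulp-like over osteoblast-like was −1.64 in Cxcl12-GFP P6 and 0.61 at P25. For Sp7 it was 0.32 in Cxcl12-GFP P6 and −0.96 at P25. Each group is 1 library, so the difference between them was not tested, and age, reporter and depth cannot be told apart. The classes rest on 1 pulp-like cluster in each library, and on 1 osteoblast-like cluster at day 6 against 5 at day 25. The day 6 osteoblast-like cluster had 88.4 CPM of Ibsp and 197.1 of Bglap, against 12264 and 50933 at day 25. The osteoblast-like classes compared are thus not alike in their defining genes. The pulp-like clusters also had unlike leading genes, with Tac1, Pcp4 and Smoc2 at day 6 and Apod, Trf and Cldn10 at day 25.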

How the results depend on the processing

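Values here are log2 ratios of odontoblast-like over osteoblast-like cells at P25 unless named otherwise; as reported they were −1.35 for Runx1, −0.55 for Runx2, −0.08 for Runx3, 0.05 for Sp7, 0.08 for Atf4 and 0.26 for Klf4. Over 15 alternatives, 11 planned and 4 added after seeing the data, Runx1 (−1.62 to −0.49) and Runx2 (−2.09 to −0.38) kept their sign in all 15, Runx3 (−1.20 to 0.15) and Klf4 (−1.15 to 0.38) in 13, Atf4 (−0.08 to 0.18) in 11 and Sp7 (−0.71 to 0.19) in 10. Apart from centring, which takes the same amount from every gene, the cause of these shifts was not tested. The values that follow lay outside the counting interval of the reported value, without regard to the counting error of the alternative itself. They came at resolution 0.5 (Sp7 0.18, Klf4 0.37), resolution 2.0 (Runx2 −0.95, Runx3 −1.20, Sp7 0.18, Atf4 0.18), with no gene left out of the variable genes (Runx2 −0.92, Runx3 −1.05, Sp7 0.16, Klf4 0.15), at 10% mitochondrial UMIs (Klf4 0.38), with doublets kept (Runx2 −0.70, Runx3 −0.91, Klf4 0.17) and with naming by the best marker list alone (Sp7 0.19, Klf4 0.36). In cells gated without clustering, 9 against 1599, values were Runx1 −0.49, Runx2 −2.09, Sp7 −0.71, Atf4 −0.041 and Klf4 −1.15, the last reversed. Means of single-cell CPM gave Runx1 −1.59, and leaving out the 50 most abundant genes gave Klf4 0.17. Centring on all genes gave Runx2 −0.71, Sp7 −0.11, Atf4 −0.078 and Klf4 0.094, and thinning to 5000 UMIs Runx1 −1.62, Runx2 −0.77, Sp7 0.15 and Klf4 0.31. Of the added alternatives, leaving out cluster 7 gave Runx2 −0.38 and Klf4 0.19, the Dmp1-high part alone Runx2 −0.95, Runx3 −1.02, Sp7 0.15 and Klf4 0.18, and cells with at least 1 Dspp UMI Runx2 −1.79, Runx3 −0.67, Atf4 −0.054 and Klf4 −0.23, the last reversed.

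Genes at least 2-fold higher in odontoblast-like and in osteoblast-like cells numbered 329 and 297, against 176 and 166 at 50 CPM, 596 and 550 at 5 CPM and 10 UMIs, 46 and 1005 with gated cells, and 259 and 358 after centring. Thinned to 1000 UMIs and not thinned, the shares of cells with a Runx2 UMI were 16.01% and 87.9% (odontoblast-like), 24.7% and 87.4% (osteoblast-like), 3.499% and 30.2% (pulp-like), and with an Sp7 UMI 18.6% and 91.5%, 15.8% and 79.2%, and 9.76% and 55.8%. With best-list naming, pulp-like over osteoblast-like in Cxcl12-GFP P6 was −1.85 for Runx2 and 0.54 for Klf4, and P25 over Cxcl12-GFP P6 was 0.96 for Klf4 in osteoblast-like cells and −0.11 for Runx2 and 1.09 for Klf4 in pulp-like cells. Resolution 0.5 left no osteoblast-like class in Cxcl12-GFP P6 and so gave no value there. No paired analysis was possible because each group has 1 library, and for the same reason no replicate could be left out. Sall1 is too sparse for any of these values.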
